A study of Arabidopsis thaliana with 9 samples.

Results

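FLC, its 5 close relatives FLM and MAF2 to MAF5, and the regulators SVP, AGL24, SOC1 and FT form a set of 10 Arabidopsis genes that hold back or start flowering. They were taken as a named list, by their gene identifiers, from the 33323 listed for every library, and all 10 were among the 20672 genes with enough counts to be tested. FLC was lower in both mutants than in the wild type, with no overlap between the libraries, and its relative MAF5 was lower under every replicate number. Both differences passed a DESeq2 test that pairs libraries by replicate number. They missed the threshold in the main edgeR test, and in edgeR and limma-voom tests with the same pairing on all 9 libraries. In addition, 6 of the 10 genes differed between the libraries numbered 3 and the others, in a fit that also held genotype and that called 45.7% of all tested genes.

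FLC and its relatives encode MADS-domain proteins that bind DNA and repress flowering, in complexes with the related repressor SVP. Their main targets are FT, which encodes the mobile flowering signal made in the companion cells of the leaf phloem, and SOC1, a MADS-domain activator in the shoot apex that works with AGL24. FLC is kept on by FRI and by factors that act on its chromatin, and is switched off by the autonomous pathway, by Polycomb proteins and by prolonged cold. Col-0 carries an inactive form of FRI and flowers early, so its FLC level is low beside that of late-flowering accessions.

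The material is described as whole seedlings aged 2 weeks and raised on MS medium. WT stands for Col-0 plants. The atrzf1 line carries a mutation in AtRZF1, whose product is a RING E3 ligase, and the design text presents pca31 as a suppressor of it. Each genotype had 3 libraries that read transcript 3' ends, numbered 1, 2 and 3 in the sample titles. The labels name no stress treatment, give no allele, and do not say how many plants or cultures stood behind a library, so the p-values below reflect variation among these samples alone, possibly of technical origin.

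Library totals ran from 22478803 to 33073605 counts. The AtRZF1 transcript averaged 26.8 ± 3.68 counts scaled by library size (CPM; SD, n = 3) among WT libraries, against 3.0 ± 1.39 for atrzf1 and 2.29 ± 1.03 for pca31, so pca31 shared the low level of atrzf1. Libraries of the same number resembled each other more (Spearman correlation across genes 0.965 to 0.982) than libraries of the same genotype (0.855 to 0.963). Transcripts of 5 root markers summed to 1428 to 1982 CPM in the libraries numbered 3 and to 21.9 to 158 CPM in the 6 others, where PHT1;1, a root phosphate transporter gene, had 0 counts in 5 libraries and was at 0.178 CPM in the first WT library. Transcripts of 6 green-tissue markers summed to 11549 to 15261 CPM in number 3 and to 23766 to 37876 CPM in the rest. RBCS1A, RBCS3B and RCA were each lower in number 3 than in all other libraries, while CAB3 and PSAN overlapped number 2. LHCB2.2 was higher in number 3 than in number 2, at 642 to 1243 CPM against 92.9 to 303 CPM. Every library is described as whole seedlings, also those of numbers 1 and 2 with the lower root sums. CASP2 was at 0 to 0.101 CPM there and at 3.90 to 8.14 CPM in number 3, while CASP1 and PYK10 were detected in every library. How much root each library held was not tested. Fewer cells of a type and less RNA per cell cannot be told apart in these values.

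MAF2, MAF3, MAF4 and MAF5 lie head to tail on the plus strand of chromosome 5 within 20366 bases of the TAIR10.1 assembly, with gaps of 873, 780 and 1301 bases between them and no other annotated gene among them. MAF2 (AT5G65050) covers chr5:25982254-25986435, MAF3 (AT5G65060) chr5:25987309-25991412, MAF4 (AT5G65070) chr5:25992193-25996202 and MAF5 (AT5G65080) chr5:25997504-26002619. FLC (AT5G10140) lies on the other arm at chr5:3173382-3179448 (minus strand) and FLM (AT1G77080) at chr1:28955483-28960234 (plus strand). SVP (AT2G22540) is at chr2:9579647-9583901 (plus), SOC1 (AT2G45660) at chr2:18807505-18811125 (minus), AGL24 (AT4G24540) at chr4:12670897-12674106 (minus) and FT (AT1G65480) at chr1:24331373-24333999 (plus). Annotated transcripts number 11 for FLM, 6 for MAF4, 5 for MAF2, 4 for FLC, 3 for MAF3, MAF5 and SVP, 2 for SOC1 and FT, and 1 for AGL24. A count here covers a gene and not a splice form. In this annotation FLC is the member that overlaps another gene, the long noncoding RNA gene AT5G01675 on the opposite strand, and since the strand used in counting is not given in the sources used here, reads of these 2 genes cannot be told apart. No run of 50 bases was shared between members within the last 300 bases of their annotated transcripts, the stretch that 3' end reads sample.

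Sequence just before the gene starts is shown because close relatives in the clade share long runs of bases there. FLM, MAF2 and MAF3 share an 18-base run that occurs in 3 of 27438 windows of 250 bases before the starts of protein-coding genes, in these 3 genes alone. MAF4 and MAF5 share a 20-base run found in 2 of those windows. MAF2 and MAF4 share another 18-base run, not shown, found in 3 of them. Each stretch of 90 bases is from the RefSeq TAIR10.1 assembly, plus strand, 5′ to 3′, with the shared run in capitals: FLM at chr1:28955359-28955448, MAF2 at chr5:25982033-25982122, MAF3 at chr5:25987154-25987243, MAF4 at chr5:25992015-25992104 and MAF5 at chr5:25997357-25997446.
FLM: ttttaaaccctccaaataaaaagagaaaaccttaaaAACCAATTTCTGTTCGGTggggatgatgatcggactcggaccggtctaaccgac
MAF2: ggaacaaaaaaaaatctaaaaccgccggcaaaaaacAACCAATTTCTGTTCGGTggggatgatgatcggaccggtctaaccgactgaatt
MAF3: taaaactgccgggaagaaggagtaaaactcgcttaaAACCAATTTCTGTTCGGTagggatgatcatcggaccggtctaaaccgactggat
MAF4: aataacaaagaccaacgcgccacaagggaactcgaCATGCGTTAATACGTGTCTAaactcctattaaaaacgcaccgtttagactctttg
MAF5: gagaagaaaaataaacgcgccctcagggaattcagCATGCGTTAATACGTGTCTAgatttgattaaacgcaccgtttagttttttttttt
The run starts 88, 185 and 119 bases before the annotated start in FLM, MAF2 and MAF3, and 143 and 112 bases before it in MAF4 and MAF5. A CArG box, the site that MADS-domain proteins bind, was searched for on both strands and found in 692 of the 27438 windows (2.522%) and in 0 of the 10 members, which says only that the motif is not within these 250 bases.

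FLC, the central repressor of the clade, was at 6.72, 11.1 and 3.15 CPM in WT libraries 1, 2 and 3. In atrzf1 it was at 1.59, 1.10 and 1.24 CPM, and in pca31 at 2.29, 1.39 and 0.598 CPM. Every mutant library lay below every WT library, and the mutants overlapped each other. Means (± SD, n = 3) were 7.0 ± 4.0 CPM for WT, 1.31 ± 0.254 for atrzf1 and 1.42 ± 0.844 for pca31, from 80 to 265 counts per WT library and 18 to 71 per mutant library. FLC was the member with non-overlapping lower values, as were 1.14% of all tested genes for atrzf1, 2.06% for pca31 and 0.329% for all 6 mutant libraries at once.

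Set against WT of the same replicate number, FLC in atrzf1 was 4.23-fold lower in number 1 (95% counting interval 3.06 to 5.95), 10.2-fold lower in number 2 (6.73 to 16.0) and 2.54-fold lower in number 3 (1.68 to 3.91). In pca31 the same ratios were 2.94-fold, 8.02-fold and 5.26-fold. FLC was thus lower under each number, most in number 2, whose interval in atrzf1 lay above those of numbers 1 and 3. These intervals cover counting error only.

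The main test, edgeR's quasi-likelihood test with genotype as its term, gave FLC a log2 fold change of -2.41 ± 0.60 (SE) in atrzf1 against WT, with an unadjusted p of 0.00309 and a Benjamini-Hochberg adjusted p of 1. It called 0 of the 20672 genes in that comparison (percentage called 0), with 115 at an unadjusted p under 0.05, and so 0 of the 10 members. In pca31 against WT, FLC differed by -2.29 ± 0.60 and again was not called, and 0.00484% of genes were. Both comparisons share the WT libraries. With the replicate number as a block, edgeR gave -2.26 ± 0.43 in atrzf1 (adjusted p = 0.207) and -2.30 ± 0.42 in pca31 (adjusted p = 0.130), and called 0 members where it called 0.0339% and 0.0435% of genes.

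DESeq2 with the same block called FLC lower in atrzf1 (log2 fold change -2.26, adjusted p = 0.00081) and in pca31 (-2.34, adjusted p = 0.000177). FLC and MAF5 were the 2 members it called in each comparison, where it called 0.0967% and 0.339% of all genes as lower. DESeq2 without the block gave FLC adjusted p = 0.425 and 0.384, and limma-voom with the block 0.119 and 0.0647. Over 29 fits FLC differed by -2.78 to -1.69 in atrzf1 and by -2.81 to -1.79 in pca31, below 0 in all 29 of each, and DESeq2 with the block was the 1 fit that called it.

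**Figure D1:**
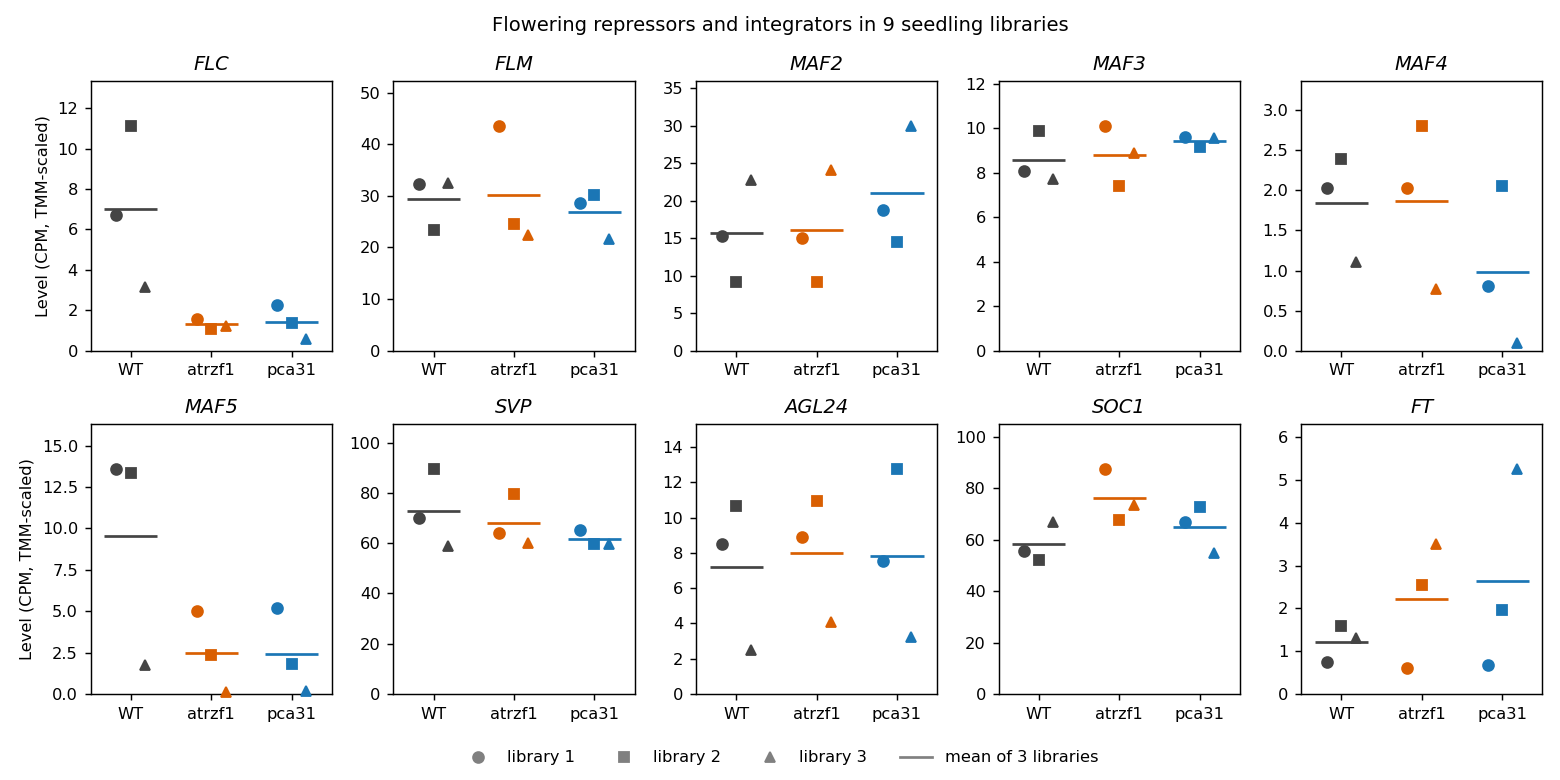
Level of each of the 10 genes in CPM, scaled by TMM factors, in the 9 libraries; columns are genotypes, symbols the replicate numbers, and horizontal lines the mean of 3 libraries. FLC in the 6 mutant libraries sits below the lowest WT value of 3.15 CPM, while MAF5, AGL24 and MAF4 are lowest in the triangle (library 3) of each genotype.

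Between pca31 and atrzf1, FLC showed no steady direction, at 1.44, 1.27 and 0.483 times the atrzf1 level in numbers 1, 2 and 3. The log2 difference was 0.12 ± 0.58 by edgeR without the block and -0.05 ± 0.43 with it, neither called, where 0.00484% of genes were called by each of these fits.

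MAF5, the last gene of the tandem cluster, was at 13.6, 13.3 and 1.77 CPM in WT libraries 1, 2 and 3. In atrzf1 it was at 5.0, 2.37 and 0.109 CPM and in pca31 at 5.22, 1.82 and 0.199 CPM. The genotypes overlapped, because the libraries numbered 3 were low in each of them, but under every number both mutants lay below WT, as FLC and 4.67% of all genes also did. Mean levels (± SD, n = 3) were 9.57 ± 6.75 CPM for WT, 2.49 ± 2.45 for atrzf1 and 2.41 ± 2.56 for pca31.

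Relative to WT of the same number, MAF5 was 2.71-fold, 5.64-fold and 16.2-fold lower in atrzf1, the last from 3 against 45 counts with a counting interval of 5.20 to 81.4. In pca31 it was 2.60-fold, 7.33-fold and 8.87-fold lower, the last from 6 counts with an interval of 3.77 to 25.5. Without a block its log2 fold changes were -1.94 ± 1.31 and -1.99 ± 1.31 (edgeR, adjusted p = 1 for both). The block left the size similar and shrank the error, to -2.35 ± 0.40 in atrzf1 (edgeR, adjusted p = 0.123) and -2.38 ± 0.40 in pca31 (adjusted p = 0.0821), still not called. DESeq2 with the block called MAF5 lower in atrzf1 (-2.44, adjusted p = 6.21e-05) and in pca31 (-2.47, adjusted p = 1.67e-05). The blocked edgeR fit also called it in pca31 without WT replicate 1 (-2.98, adjusted p = 0.0260). Between the mutants MAF5 differed by -0.05 ± 1.28, or -0.03 ± 0.40 with the block.

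**Figure D2:**
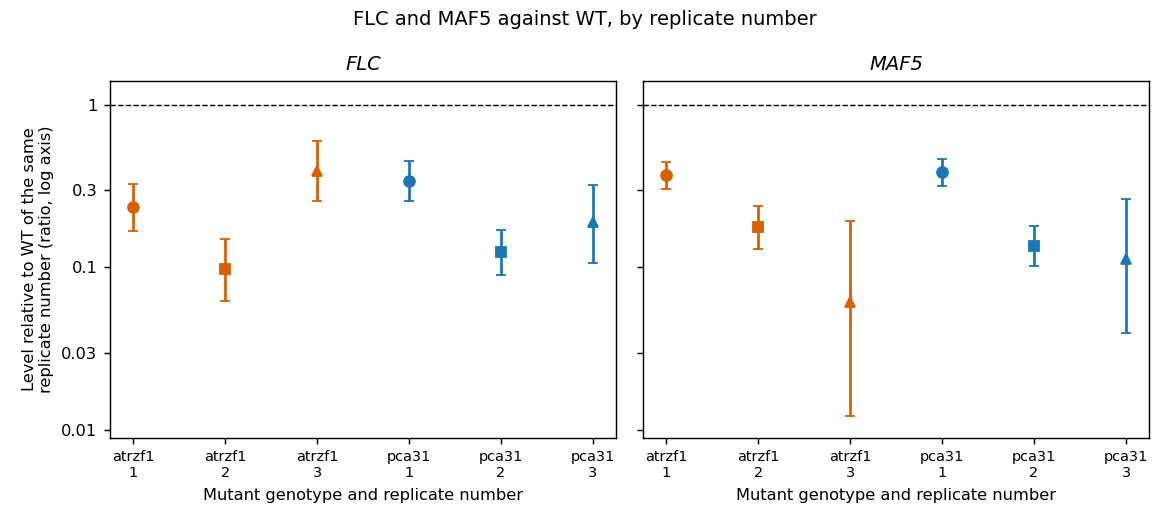
FLC and MAF5 in each mutant library as a ratio to the WT library of the same replicate number, on a log axis, with 95% intervals for counting error; the dashed line marks equality. All 6 ratios of each gene lie below 1, and the widest interval is that of MAF5 in atrzf1 library 3, with 3 counts.

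Transcripts of 6 flower organ markers (AP3, PI, AG, SEP1, SEP2 and SEP3) were summed in each library. Their level ranged over 6.51 to 12.8 CPM among WT libraries, 18.8 to 60.7 for atrzf1 and 17.0 to 48.3 for pca31, with AG at 0 in library 3 of both mutants, AP3 at 0 in pca31 library 3 and SEP2 at 0 in WT library 3. All 6 were higher in both mutants than in WT in numbers 1 and 2. In number 3 SEP3 made up most of the sum (9.08 CPM in WT, 13.4 in atrzf1 and 12.6 for pca31), and SEP1 was lower in the mutants (0.983 CPM against 0.729 and 0.366). Their part in the result was not tested. Transcripts of 5 shoot meristem genes summed to 15.2 to 30.2 CPM for WT, 18.8 to 45.7 for atrzf1 and 16.2 to 48.9 for pca31, with the meristem genes WUS at 0 in all WT libraries and CLV3 at 0 in all mutant libraries. CLV3 was at no more than 0.157 CPM in WT, near the floor of counting. Root sums were also below WT under every number in both mutants, at 158, 58.3 and 1982 CPM for WT, 70.9, 21.9 and 1428 for atrzf1 and 68.0, 29.3 and 1778 for pca31 (numbers 1, 2 and 3), although the genotypes overlapped. Green-tissue sums were below WT under every number in pca31 (30074, 23766 and 11549 CPM against 37876, 33710 and 13390), while atrzf1 was below WT in number 1 and above it in numbers 2 and 3. The part of these sums in the FLC and MAF5 differences was not tested.

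FLM, MAF3 and SVP were not called in any genotype comparison by any fit run. FLM, a repressor whose splice forms respond to ambient temperature, measured 32.3, 23.4 and 32.4 CPM in WT libraries 1 to 3, against 43.5, 24.5 and 22.5 in atrzf1 and 28.6, 30.1 and 21.7 for pca31. MAF3, a further repressor of the clade, measured 8.10, 9.91 and 7.75 CPM in WT libraries 1 to 3, against 10.11, 7.40 and 8.89 in atrzf1 and 9.59, 9.16 and 9.57 for pca31. Both overlapped fully between genotypes, with log2 differences from WT of at most 0.14 in size (0.04 ± 0.31 and -0.13 ± 0.31 for FLM, 0.04 ± 0.23 and 0.14 ± 0.23 for MAF3). SVP, the partner of FLC and FLM in repressing FT and SOC1, measured 70.1, 89.4 and 58.7 CPM in WT libraries 1 to 3, against 64.0, 79.3 and 60.1 in atrzf1 and 65.2, 59.7 and 59.6 for pca31. It too overlapped, differing by -0.10 ± 0.24 and -0.24 ± 0.24.

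MAF2, which delays flowering after short cold spells, measured 15.3, 9.11 and 22.7 CPM in WT libraries 1 to 3, against 15.0, 9.16 and 24.2 in atrzf1 and 18.7, 14.5 and 30.0 for pca31. WT and atrzf1 were nearly equal under each number, and pca31 was above both under each, as 15.7% of genes were against WT and 12.6% against atrzf1. The ratio of pca31 to WT was 1.22, 1.60 and 1.32 in numbers 1, 2 and 3, and the blocked log2 difference 0.46 ± 0.16 (edgeR, unadjusted p = 0.0173, adjusted p = 0.504). Against atrzf1 it was 0.43 ± 0.16 (unadjusted p = 0.0227, adjusted p = 0.956). Neither passed.

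MAF4, the neighbour of MAF5 and a repressor of the same kind, measured 2.03, 2.39 and 1.10 CPM in WT libraries 1 to 3, against 2.03, 2.80 and 0.765 in atrzf1 and 0.805, 2.05 and 0.0997 for pca31. In pca31 it was below WT under every number, as 14.3% of genes were, and below atrzf1, as 11.4% were, although the genotypes overlapped. In number 3 the pca31 library had 3 counts against 28 in WT, 11.04-fold lower with a counting interval of 3.41 to 56.8. With the block the log2 difference from WT was -1.33 ± 0.56 in pca31 (edgeR, adjusted p = 0.564) and -0.13 ± 0.53 in atrzf1, and pca31 differed from atrzf1 by -1.20 ± 0.55 (adjusted p = 0.956). None of these was called.

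Of the promoters of flowering, SOC1 measured 55.7, 52.1 and 67.1 CPM in WT libraries 1 to 3, against 87.5, 67.9 and 73.4 in atrzf1 and 67.1, 72.9 and 54.7 for pca31. Each atrzf1 library lay above each WT library, as for 1.30% of genes, while pca31 overlapped both. The ratio of atrzf1 to WT was 1.57 in number 1, 1.30 in number 2 and 1.09 in number 3. The log2 difference was 0.39 ± 0.23 without the block and 0.38 ± 0.18 with it (edgeR, unadjusted p = 0.0523), not called by any of 30 fits, which ran from 0.25 to 0.56. AGL24, its partner, measured 8.5, 10.7 and 2.48 CPM in WT libraries 1 to 3, against 8.89, 10.95 and 4.08 in atrzf1 and 7.53, 12.7 and 3.22 for pca31. The genotypes overlapped, although atrzf1 lay above WT under each number, as for SOC1 and 12.1% of genes, with differences of 0.14 ± 0.64 and 0.12 ± 0.64 from WT.

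FT, the mobile signal, measured 0.746, 1.60 and 1.30 CPM in WT libraries 1 to 3, against 0.609, 2.54 and 3.50 in atrzf1 and 0.676, 1.97 and 5.25 for pca31. These values rest on 18 to 158 counts. In number 1 the counting intervals of both mutants' ratios to WT, 0.410 to 1.61 and 0.471 to 1.74, included equality, and in number 3 atrzf1 was at 2.70 times (counting interval 1.80 to 4.14) and pca31 at 4.05 times (2.77 to 6.08) the WT level. The log2 differences of 0.87 ± 0.82 and 1.12 ± 0.82 were not called, nor were those with the block, 0.59 ± 0.47 and 0.76 ± 0.48. Over the 10 genes the median log2 difference from WT was 0.04 (atrzf1) and -0.01 (pca31), beside 0.00 and 0.01 over all tested genes.

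**Figure D3:**
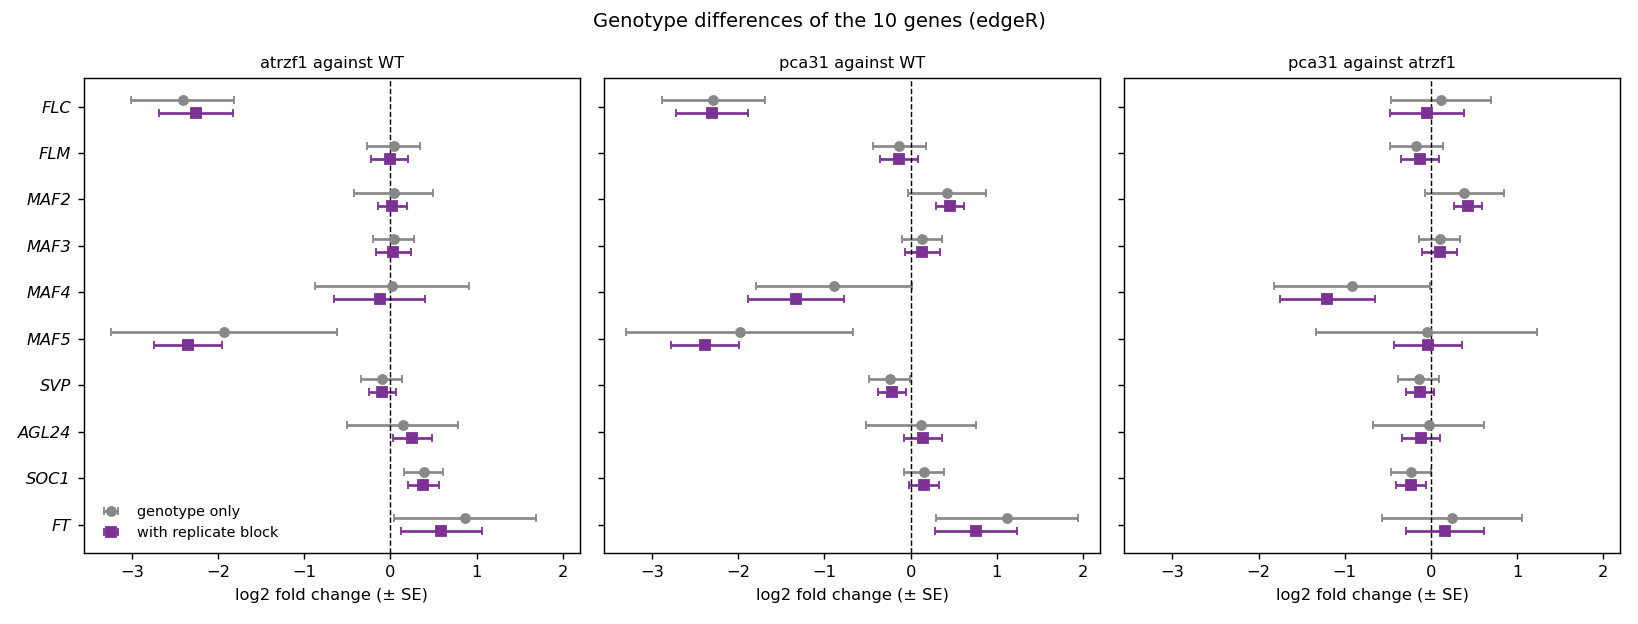
Log2 fold change with its standard error for the 10 genes in the 3 genotype comparisons, from edgeR with genotype alone (grey circles) and with the replicate block (purple squares). With the block FLC and MAF5 stand near -2.3 against WT in both mutants, without it MAF5 is at -1.94 and -1.99, and both genes are near 0 between the mutants; the block narrows the error of MAF5 from 1.31 to 0.40.

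Genes that act on FLC were not called in any genotype comparison by edgeR, with or without the block. Of 19 activators of FLC 7 lay above and 12 below 0 in atrzf1 against WT, with a median of -0.10 on the log2 scale. FRI was at 1.09 to 2.51 CPM in all 9 libraries. The largest differences were 0.34 ± 0.23 for ARP6, a subunit of the SWR1 chromatin remodeller, -0.28 ± 0.26 for ELF7, a subunit of the Paf1 complex, and -0.27 ± 0.64 for HUB2, a histone H2B ubiquitin ligase. The 9 autonomous pathway genes had a median of -0.17, where FY, an RNA 3' end processing factor, differed by 0.51 ± 0.34 in atrzf1 and 0.68 ± 0.34 in pca31, FPA, an RNA-binding protein, by -0.31 ± 0.33, and REF6, a histone demethylase, by -0.21 ± 0.47. The 10 vernalization and Polycomb genes had a median of -0.08, with VEL1 at -0.24 ± 0.44, VRN1 at -0.11 ± 0.26 and VIN3, which starts the silencing of FLC in the cold, at -0.11 ± 0.37.

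Genes upstream of FT were likewise not called between genotypes. The 13 photoperiod genes had a median of -0.20 in atrzf1 against WT, with CDF2, a repressor of CO, at -0.63 ± 0.61, FKF1, a blue light receptor that removes CDF proteins, at 0.36 ± 0.36, and the photoreceptor gene PHYB at -0.35 ± 0.58. All 8 AP2-type and RAV repressors of FT lay below 0 for atrzf1 (median -0.17), with the largest differences at -0.36 ± 0.87 for SNZ, -0.24 ± 0.31 for TOE1 and -0.17 ± 0.60 for TEM2. With the block 7 of these 8 were below 0. The 6 tested relatives and partners of FT had a median of -0.03, with 3 on each side of 0, and TSF, the closest relative of FT, was not tested and had a highest level of 0.173 CPM.

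Downstream, the values lay on the higher side in both mutants without passing the test. Of 5 tested meristem identity genes 5 were above 0, with medians of 1.46 (atrzf1) and 1.72 (pca31) relative to WT, and 3 of the 8 listed were too low to test. Of these 5, 1 in atrzf1 and 2 in pca31 had an unadjusted p under 0.05 by edgeR without the block. With the block 3 and 4 did, as did 771 and 1745 of the 20672 genes, and none of the 5 was called. FUL, which promotes the floral transition, measured 1.60, 4.28 and 0.983 CPM in WT libraries 1 to 3, against 4.6, 11.7 and 0.729 in atrzf1 and 4.76, 11.8 and 1.06 for pca31. It was higher in the mutants in numbers 1 and 2 and similar in number 3, at 1.31 ± 1.06 and 1.36 ± 1.06 on the log2 scale. Of 10 SPL genes, age-dependent activators of the floral transition, 7 were above 0 in atrzf1 (median 0.41) and 8 in pca31 (median 0.39). SPL3 measured 26.8, 39.0 and 15.0 CPM in WT libraries 1 to 3, against 53.5, 55.4 and 17.7 in atrzf1 and 45.9, 65.7 and 20.8 for pca31. It lay above WT under each number in both mutants, as did 12.1% of genes in atrzf1 and 15.7% in pca31. Differences in atrzf1 were 0.65 ± 0.56 for SPL3, 0.69 ± 0.82 for SPL9 and 0.45 ± 0.30 for SPL10. The summed flower organ markers given above were also higher, and their part in these values was not tested.

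The members were also compared between replicate numbers. In a fit with number and genotype, 6 of the 10 genes differed between number 3 and numbers 1 and 2 (edgeR, Benjamini-Hochberg adjusted), where 45.7% of all genes were called, 23.6% as higher and 22.1% as lower. MAF2 rose by 0.95 ± 0.14 on the log2 scale (adjusted p = 0.000197) and FT by 1.39 ± 0.39 (0.0118). The 4 genes that fell were FLC (-1.06 ± 0.38, adjusted p = 0.0386), MAF4 (-1.81 ± 0.52, 0.0131), AGL24 (-1.60 ± 0.21, 8.96e-05) and MAF5 (-3.61 ± 0.41, 3.04e-05). FLC in number 3 (0.598 to 3.15 CPM) overlapped numbers 1 and 2. In atrzf1 it was at 1.24 CPM in number 3, between 1.59 in number 1 and 1.10 in number 2. FLM, MAF3, SVP and SOC1 were not called, at -0.25 ± 0.19, -0.05 ± 0.18, -0.25 ± 0.14 and -0.03 ± 0.15. The median over the 10 genes was -0.25, beside 0.03 over all genes. What the replicate numbers stand for is not stated in the labels.

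The ends of the tandem cluster changed in opposite directions in the number 3 libraries. MAF2 at its start reached 22.7 to 30.0 CPM in number 3, against 9.11 to 18.7 CPM elsewhere, above all 6 others, as were 18.9% of genes. MAF3 was not called. MAF4 had 0.0997 to 1.10 CPM in number 3, against 0.805 to 2.80 CPM elsewhere, and MAF5 had 0.109 to 1.77 CPM against 1.82 to 13.6 CPM, so that MAF5 was below all 6 others, as were AGL24 and 17.3% of genes.

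**Figure D4:**
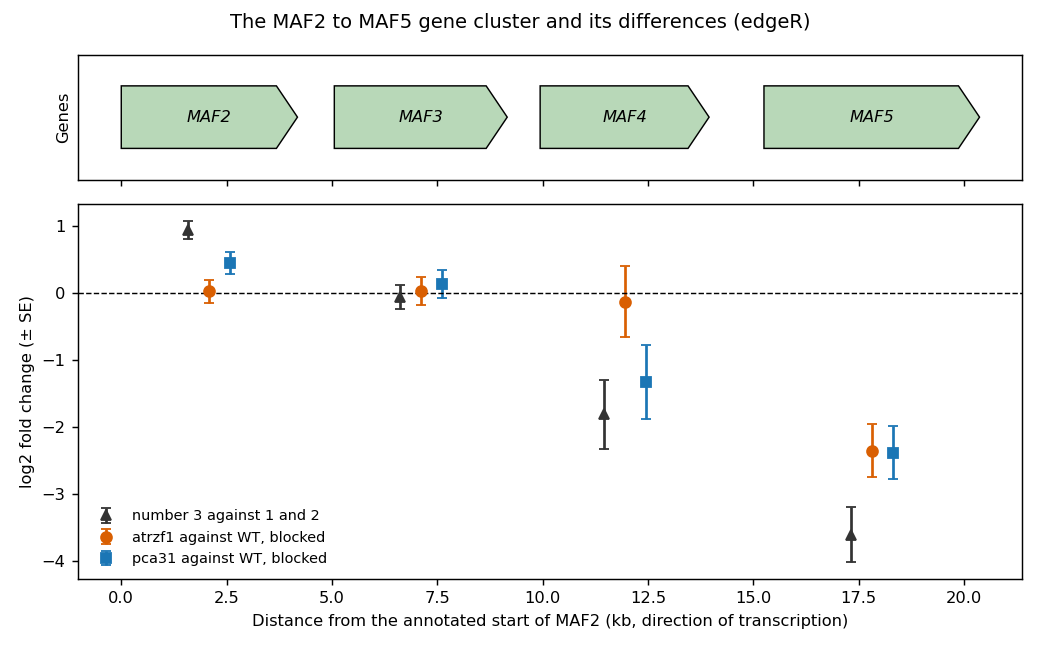
Upper panel, the 4 genes of the MAF2 to MAF5 cluster drawn to scale by distance from the start of MAF2; lower panel, their log2 fold changes with standard errors for number 3 against numbers 1 and 2 and for each mutant against WT with the replicate block. The number 3 difference goes from 0.95 at MAF2 through -0.05 at MAF3 to -1.81 and -3.61 at MAF4 and MAF5, and in the mutants the lower values are at MAF5 and, in pca31, MAF4.

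AGL24 had 2.48 to 4.08 CPM in number 3, against 7.53 to 12.7 CPM among the others, and FT 1.30 to 5.25 CPM against 0.609 to 2.54 CPM. The calls for MAF2, MAF5 and AGL24 were made in 16 of 16 fits. FLC was called in 9 of 15 fits, and was lost without WT replicate 2 (-0.77, adjusted p = 0.129), WT replicate 3 (-0.78, 0.233), atrzf1 replicate 1 (-1.14, 0.0506), pca31 replicate 1 (-0.90, 0.0734) or pca31 replicate 3 (-0.85, 0.161), and with no genotype term (-1.27, 0.187), all by edgeR. FT was called in 13 of 15, lost without atrzf1 replicate 3 (1.37, edgeR adjusted p = 0.0678) or pca31 replicate 3 (0.91, 0.167), and MAF4 in 14 of 15, lost without pca31 replicate 3 (-1.31, 0.0551). Some tissue markers moved with these differences. The number 3 libraries had the higher root and lower green-tissue sums given above. The phloem companion cell genes SUC2 and AHA3 summed to 89.7 to 113 CPM in them, against 192 to 262 CPM in the others. AHA3 alone was not lower than in number 2, at 21.0 to 26.4 CPM against 18.6 to 29.5 CPM. The 5 meristem genes summed to 15.2 to 18.8 CPM in number 3, against 21.9 to 48.9 CPM elsewhere. STM carried most of that gap, at 5.23 to 7.58 CPM in number 3 and 11.7 to 33.5 CPM elsewhere. KNAT1 and ATH1 in number 3 overlapped both other numbers. CLV3 was highest in WT library 3, at 0.157 CPM, near the 0.118 CPM that a count of 0 allows in that library. The part of these markers in the differences of the 10 genes was not tested.

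Between numbers 2 and 1, 2 of the 10 genes were called, where 22% of all genes were, 9.87% as higher and 12.1% as lower. MAF2 fell by 0.60 (± 0.17, edgeR adjusted p = 0.0235) and FT rose by 1.54 ± 0.48 (0.0390). FT had 0.609 to 0.746 CPM in number 1, against 1.60 to 2.54 CPM in number 2, with no overlap, as for MAF4, AGL24 and 17.7% of genes on the higher side and for MAF2 and 20.4% on the lower. MAF2 kept its call in 11 of 16 fits and lost it without WT replicate 1 (-0.55, adjusted p = 0.124), WT replicate 2 (-0.55, 0.114), atrzf1 replicate 1 (-0.59, 0.0958) or atrzf1 replicate 2 (-0.54, 0.112), and with no genotype term. FT kept its call in 9 of 15 fits and lost it without WT replicate 2 (1.44, edgeR adjusted p = 0.136), atrzf1 replicate 1 (1.33, 0.170), 2 (1.38, 0.152) or 3 (1.57, 0.0564), or pca31 replicate 1 (1.32, 0.127), and by limma-voom.

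**Figure D5:**
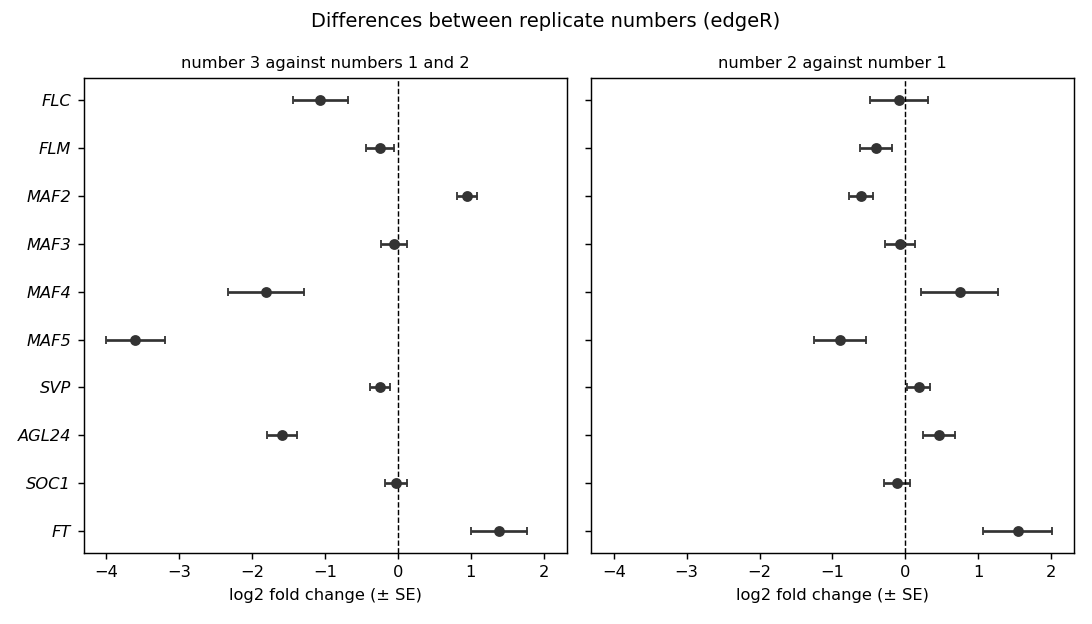
Log2 fold change with its standard error for the 10 genes between replicate numbers, from edgeR with number and genotype as terms. Left, number 3 against numbers 1 and 2, with MAF5 lowest at -3.61 and FT highest at 1.39; right, number 2 against number 1, with FT highest at 1.54.

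Regulators of FT differed between the numbers as well. CO, the photoperiod activator of FT, was at 4.99 to 6.94 CPM in number 2, 1.16 to 2.03 in number 1 and 0.550 to 1.53 in number 3. It rose by 1.88 ± 0.40 on the log2 scale in number 2 against 1 (edgeR, adjusted p = 0.00689) and fell by 1.64 (± 0.37, 0.00391) in number 3. GI, a clock-controlled gene that promotes CO expression, was at 27.4 to 34.4 CPM in number 1, 3.03 to 6.93 in number 2 and 21.5 to 24.3 in number 3. In number 2 against 1, 10 of the 13 photoperiod genes fell and 1, CO, rose, where 12.1% of all genes were called lower and 9.87% higher. Those that fell included CDF1 at -2.84 ± 0.28 and CDF3 at -2.26 ± 0.20, both repressors of CO.

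Other pathway genes called in number 3 lay in both directions. Of the 19 activators of FLC 6 rose, among them HUB2 by 1.12 ± 0.23 and PIE1, the SWR1 ATPase, by 0.97 ± 0.25, while VIP3, a subunit linked to the Paf1 complex, fell by 1.23 (± 0.20). Of the 10 vernalization and Polycomb genes 4 rose, among them the histone methyltransferase gene SWN by 1.49 ± 0.20 and VRN2 by 1.08 ± 0.23, and MSI1 fell by 0.51 (± 0.14). Of the 9 autonomous pathway genes LD and REF6 rose. Of the 8 AP2-type and RAV repressors of FT 3 rose (SMZ, TEM2 and TOE2) and 3 fell (SNZ at -2.15, TEM1 at -1.20 and TOE1 at -0.53). Of the 10 SPL genes 4 fell, with SPL9 at -2.25 and SPL3 at -1.38, and SPL2 rose. The called meristem identity genes AP1 and FUL fell, at -5.05 and -2.51, and ATC, a relative of FT, rose by 5.06 ± 0.60. AP1 was at 0 to 0.255 CPM in number 3, against 0.284 to 3.93 CPM elsewhere. ATC was at 1.53 to 6.55 CPM in number 3, against 0 to 0.237 CPM elsewhere. The sizes for AP1 and ATC thus rest on levels near the floor of counting. The adjusted p-values of these calls by edgeR were all below the threshold of 0.05, in a comparison in which 45.7% of genes were called.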

How the data were processed

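The authors deposited raw, whole-number counts for each gene, made from 3' end (Lexogen QuantSeq) reads with Bowtie2, bedtools and the TAIR10 genome, per the submitters' processing notes. No source used here gives versions, strand setting, annotation or read filters. These were fitted with edgeR 4.0.16 in R 4.3.3 (filterByExpr, minimum count 10 and minimum total 15; TMM; quasi-likelihood test on all 9 libraries; Benjamini-Hochberg adjustment over all tested genes; threshold 0.05). Alternatives used DESeq2 1.42.0, limma-voom (limma 3.58.1), other scaling and filters, a replicate block, and libraries left out. Errors beside CPM are SDs over 3 libraries. CPM is not corrected for length, so levels are not compared between genes. A count of 0 allows up to 3 counts (0.0867 to 0.131 CPM). Counting intervals and floors cover counting error only.

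Libraries of the same number deviated together from their group means. Correlations were 0.585 to 0.849 in 9 pairs, against -0.736 to 0.271 in 18 other pairs. The numbers were therefore taken to pair the samples in the fits with the replicate block. The main genotype test did not pair them. Gene models and sequence came from RefSeq TAIR10.1. The edgeR fits without and with the block were tested on simulated data for atrzf1 against WT. DESeq2 and limma-voom were not tested in that way. The 10 genes, the pathway lists and the marker lists were chosen with earlier results of these data known. The rule for named genes took all 10 members, genes of a pathway list that were called, and up to 3 per list with the largest difference in atrzf1 against WT and a mean of at least 5 CPM in either group. It also took the 5 genes most and least correlated with FLC and with SOC1.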

Additional observations from a re-analysis of the deposited data

How the results depend on the processing

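FLC and MAF5 stayed below WT in both mutants in every fit, and SOC1 stayed above WT in atrzf1 and MAF2 above WT and atrzf1 in pca31. The replicate block changed no member's edgeR call. It moved the genes called in atrzf1 against WT from 0 to 7 and in pca31 against WT from 1 to 9. Calls of members in genotype comparisons came from DESeq2 with the replicate block, with 2 in each mutant against WT (47 and 116 genes in all, 2 in pca31 against atrzf1), and from the blocked fit without WT replicate 1 (MAF5). DESeq2 without the block called 4 genes in atrzf1 and 5 in pca31. The blocked fit to numbers 1 and 2 called 16 and 28. Fits chosen after seeing the data gave 1 and 16 genes with limma-voom and the block, 7 and 10 with numbers 1 and 3, and 3 and 18 with numbers 2 and 3.

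Without single libraries, with and without the block, the genes called ran from 0 to 16 in atrzf1 against WT, 0 to 3 in pca31 against atrzf1 and 0 to 27 in pca31 against WT, with 0 to 1 members in the last. In number 3 against 1 and 2 the members called ran from 3 to 7, with 6608 to 10215 of 21000 to 21169 genes. In number 2 against 1 they ran from 0 to 3, with 1839 to 6259 genes. The filter of 5 CPM in 3 libraries kept 7 of the 10 members, without FLC, MAF4 and FT. Of these 7, 3 were called in number 3, where 7532 of 14227 genes were, and 1 in number 2, where 4581 were. In number 2 against 1, limma-voom and the fit with no genotype term each called 1 member, where they called 4819 and 4507 of 20672 genes.

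Small differences changed sign. In atrzf1 against WT FLM was -0.0090 with the replicate block, -0.0086 by limma-voom, -0.010 by blocked DESeq2, -0.040 in numbers 1 and 3 and -0.25 in numbers 2 and 3. MAF4 was -0.13 by limma-voom and with the block, -0.14 by blocked DESeq2, and -0.27 and -0.20 in those number pairs. In numbers 1 and 2 MAF2 was -0.0099 and MAF3 -0.046, and MAF3 was -0.11 in numbers 2 and 3. In pca31 against atrzf1 FLC was -0.045 with the block, -0.067 by limma-voom, -0.084 by blocked DESeq2, and -0.18 and -0.42 in the pairs with number 3. There FLM was 0.14 in numbers 2 and 3, MAF5 0.19 by limma-voom and 0.15 in numbers 1 and 3, SVP 0.00057 in numbers 1 and 3, and FT -0.17 in numbers 1 and 2. In pca31 against WT FLM was 0.095 in numbers 1 and 2 and SOC1 -0.023 in numbers 1 and 3. In number 2 against 1 FLC was 0.22 by limma-voom and 0.36 with no genotype term.

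Without single libraries the differences in atrzf1 against WT ran from -0.27 to 0.54 for AGL24, -0.32 to 0.24 for FLM, -0.38 to 0.40 for MAF2, -0.086 to 0.21 for MAF3, -0.49 to 0.39 for MAF4 and -0.24 to 0.076 for SVP. In pca31 against WT they ran from -0.45 to 0.51 for AGL24, -0.38 to 0.10 for FLM and -0.027 to 0.31 for SOC1. In pca31 against atrzf1 they ran from -0.59 to 0.32 for AGL24, -0.47 to 0.46 for FLC, -0.37 to 0.19 for FLM, -0.77 to 0.73 for FT, -0.049 to 0.22 for MAF3, -1.29 to 0.97 for MAF5 and -0.24 to 0.023 for SVP. Between numbers they ran from -0.64 to 0.29 for FLC and -0.25 to 0.087 for MAF3 (2 against 1), and from -0.13 to 0.042 for MAF3 and -0.20 to 0.12 for SOC1 (3 against 1 and 2). The causes were not tested. Counts of 3 to 45 limit MAF4 and MAF5 in number 3, and FT rests on 18 to 21 counts in number 1.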

Other observations

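Genes whose levels ran most like FLC were ranked by Pearson's r over the 9 libraries, on log2 CPM centred within each replicate number, among 18182 genes with a mean of at least 1 CPM. The 9 points share libraries and sequencing depth, and the ranking picks extremes out of many genes, so the values describe these libraries only. The highest were AT1G72070 (0.98), AT1G62290 (0.98), SBI1 (0.98), UBA1 (0.97) and BEH1 (0.97), and the lowest LAC8, AT1G01130, AT1G23790, AT1G26750 and AT1G78995 (-0.98 to -0.97). MAF5 had an r of 0.88 with FLC on the same scale, and the 8 other members lay between -0.60 for FT and 0.57 for SVP.

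For SOC1 the highest were EMB1674 (0.98), AT5G04250 (0.95), NET4A (0.95), NFD3 (0.95) and AT5G53220 (0.94), and the lowest GRP9 (-0.97), AT4G01920 (-0.97), YUC8 (-0.96), AT1G05860 (-0.95) and AT5G07590 (-0.95). SOC1 and FLC had an r of -0.55.

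AGL42, a MADS-box gene of the SOC1 subfamily, was at 1.14 to 1.22 CPM in WT, 1.86 to 4.03 in atrzf1 and 3.26 to 4.94 in pca31, a value named after it was seen. Each atrzf1 library lay above each WT library, as for 1.30% of genes. So did each pca31 library, for which the share of all genes is not given here. The log2 differences were 1.46 ± 0.40 and 1.72 ± 0.40, not called by edgeR without the block or with it (adjusted p = 0.629 in atrzf1 and 0.188 in pca31).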
